A study of Mus musculus with 9 samples.

Results

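The genes of the lysosome and of the transcription factor family that governs it were examined in macrophages that had been grown in culture from mouse bone marrow. The set comprises 44 genes, matched by symbol to the Ensembl identifiers of a count table with 22165 gene rows. It holds 16 subunits and accessory proteins of the vacuolar proton pump, 3 TFEB-family factors, 8 lysosomal proteases, 8 glycan and lipid hydrolases or their activators, and 9 membrane and other lysosomal proteins. All 44 passed the filter on low counts, which left 10781 genes to be tested. The macrophages came from C57BL/6N mice and all of them received lipopolysaccharide (LPS, a bacterial cell-wall component) at 100 ng/mL for 24 h, so no unstimulated sample enters any comparison. By their labels, 3 libraries are wildtype (WT), 3 are Irg1-/- (KO) and 3 are Irg1-/- with 1 mM itaconate added 4 h after LPS (KO+ITA). Acod1 reads went against these labels in 4 libraries, as given below. The gene Irg1, named Acod1 in the annotation, codes for the itaconate-producing enzyme. The labels do not describe the deleted part of the gene, nor do they say that replicates came from separate mice or cultures, so the tests measure the spread between these libraries, which may be technical. Cultures are bulk samples, in which fewer cells of a type and less RNA per cell cannot be told apart.

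Lysosomes are the acidic compartments in which macrophages digest what they engulf. The vacuolar ATPase pumps protons into them, the acid hydrolases work at the resulting low pH, and heavily glycosylated membrane proteins line the wall. TFEB, TFE3 and MITF are related basic helix-loop-helix factors that mTORC1 keeps in the cytosol when nutrients are plentiful. When freed they enter the nucleus and bind a palindromic element, the CLEAR box, near the starts of lysosomal genes. Itaconate has been described as a modifier of TFEB that favours its entry into the nucleus, and such regulation acts on the protein, which messenger RNA levels do not report.

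The promoters of the set were searched for the letters of the CLEAR box. RefSeq promoters (GRCm38.p6), from 250 bases before to 50 bases after a start, were at hand for 36 of the 44 genes. The core CACGTG, a palindrome and therefore the same on both strands, lay in the promoters of 12 of the 36 (33.3%), against 8.09% of the 27025 genes with a promoter and 12% of the 8591 tested genes with one. The longer palindrome TCACGTGA, which contains that core, lay in 8 of the 36 (22.2%), against 1.12% of all genes with a promoter and 2.33% of the tested ones. The same motif with a G before and a C after it, searched as the longest palindrome, lay in the promoter of Cln3 alone, 2.78% of the 36 against 0.885% of tested genes. A gene with several starts counts once if any of its starts has the motif. The set was chosen as genes of the lysosome and its factor family, so these shares describe it and are no independent test. The 8 promoters with TCACGTGA follow as windows of 30 bases in the direction of the gene, with the motif in capitals, because elements of this kind are what TFEB-family factors are known to bind.
Atp6v1a: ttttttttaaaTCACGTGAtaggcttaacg
Atp6v0d1: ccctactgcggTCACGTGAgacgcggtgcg
Atp6v0e: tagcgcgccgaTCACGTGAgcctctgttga
Ctsa: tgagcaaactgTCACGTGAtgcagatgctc
Ctsd: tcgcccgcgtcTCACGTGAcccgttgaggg
Gla: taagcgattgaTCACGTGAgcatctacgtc
Mcoln1: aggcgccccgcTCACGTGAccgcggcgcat
Cln3: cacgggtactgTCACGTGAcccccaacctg
For the pump subunits the windows lie at chr16:44139373-44139402 (minus strand) for Atp6v1a, chr8:105566050-105566079 (minus strand) for Atp6v0d1 and chr17:26676387-26676416 (plus strand) for Atp6v0e. For the proteases they lie at chr2:164833749-164833778 (plus strand) for Ctsa and chr7:142387908-142387937 (minus strand) for Ctsd. The others lie at chrX:134601215-134601244 (minus strand) for Gla, chr8:3500462-3500491 (plus strand) for Mcoln1 and chr7:126583340-126583369 (minus strand) for Cln3. Counted from the start as 0, the motif begins at -132 in Atp6v1a, -99 in Ctsd, -46 in Mcoln1 and -122 in Cln3. It begins at -13 in Ctsa, -4 in Atp6v0d1 and 2 in Atp6v0e, beside the start, and at -228 in Gla. Gla and Ctsa hold 2 copies each within the promoter, of which the first is shown. A match of letters is not a measured binding site.

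Gene reads ranged from 7361671 to 20430359 per library, at which 3 reads correspond to 0.147 to 0.408 CPM (counts scaled to a common total of gene reads), a limit for counting error only. Acod1 went against the labels of 4 libraries. It had 11.3 and 9.14 CPM in WT replicates 1 and 2 but 4170 CPM in WT replicate 3. It had 7.53 and 12.9 CPM in KO replicates 1 and 2 but 4420 CPM in KO replicate 3. In KO+ITA replicates 1 and 2 it had 8.68 and 0.877 CPM but 6420 CPM in replicate 3. Groups keep the names on their labels, so the conflict bears on the direction of each comparison. Part of the results are also given without WT replicates 1 and 2, KO replicate 3 and KO+ITA replicate 3. KO+ITA replicate 3 also stood apart over all tested genes, with a mean correlation of 0.92 with the others where the others had 0.947 to 0.959, and had the largest share of reads outside annotated genes (33.7%, against 23.1% to 28.4%). Macrophage markers were present in every library (10 of 10 genes), with a summed level of 8250 to 10700 CPM in WT, 7020 to 8020 in KO and 3510 to 7680 in KO+ITA, the lowest being KO+ITA replicate 3. Lyz2 made up much of the sum, with 1220 CPM in that library and 5570 in WT replicate 2. All listed macrophage markers were lowest in KO+ITA replicate 3 except Itgam (895 CPM) and Mrc1 (58.3 CPM), which exceeded most other libraries. Neutrophil markers (8 of 10 above 1 CPM in some library) summed to 191 to 333 CPM and fibroblast markers (5 of 6) to 167 to 274 CPM, with Ly6g, Mpo and Lum among those at or near 0. T-cell, B-cell, dendritic-cell and erythroid sums lay between 0 and 3.33 CPM, and mast-cell markers (0 of 5) had no reads. Osteoclast markers summed to 66.4 to 106 CPM in WT, 51.1 to 72.8 in KO and 21.6 to 87.1 in KO+ITA, most of it Acp5 and Mmp9, with Calcr at 0 to 0.649 CPM. The part of other cells in the results was not tested.

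Together the 44 genes took 2.61% to 3.64% of the gene reads of a library. Their ratios between libraries were smaller than those of the median tested gene, and most of them were well counted. The highest library exceeded the lowest by a median of 2.06-fold, against 2.72-fold over all tested genes, and by under 2-fold in 43.2% of the 44, against 21.3% of all tested genes. All tested genes include less well counted ones and were not matched to the set by level. The part of counting error in this difference was not tested. In 7 genes the ratio was 3-fold or more, namely Atp6v0c, Lamp2, Atp6v1d, Ctsh, Tfeb, Mitf and Atp6v1h. The reads behind these values numbered 100 or more in every library for 42 of the 44, the exceptions being Tfeb, with 84 reads in its lowest library, and Atp6v0c.

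The highest and lowest values were spread unevenly over the libraries. WT replicate 3 was the highest of the 9 libraries for 12 of the 44 genes (27.3%, against 12.4% of all tested genes) and the lowest for none. KO replicate 1 was the lowest for 11 (25%, against 13.3%), 7 of which were among the 16 pump genes. KO+ITA replicate 3 was the lowest for 17 (38.6%, against 26% of all tested genes). Those 17 comprised 15 of the 25 proteases, hydrolases and membrane proteins and 2 of the 16 pump genes. In that library the median gene lay at -0.59 from its own mean over the 9 libraries (log2 scale) for proteases and at -0.54 for glycan and lipid hydrolases, at -0.37 for the membrane group and at 0.12 for the pump. Its macrophage marker sum was also the lowest, as given above, and the part of that in these values was not tested.

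**Figure D1:**
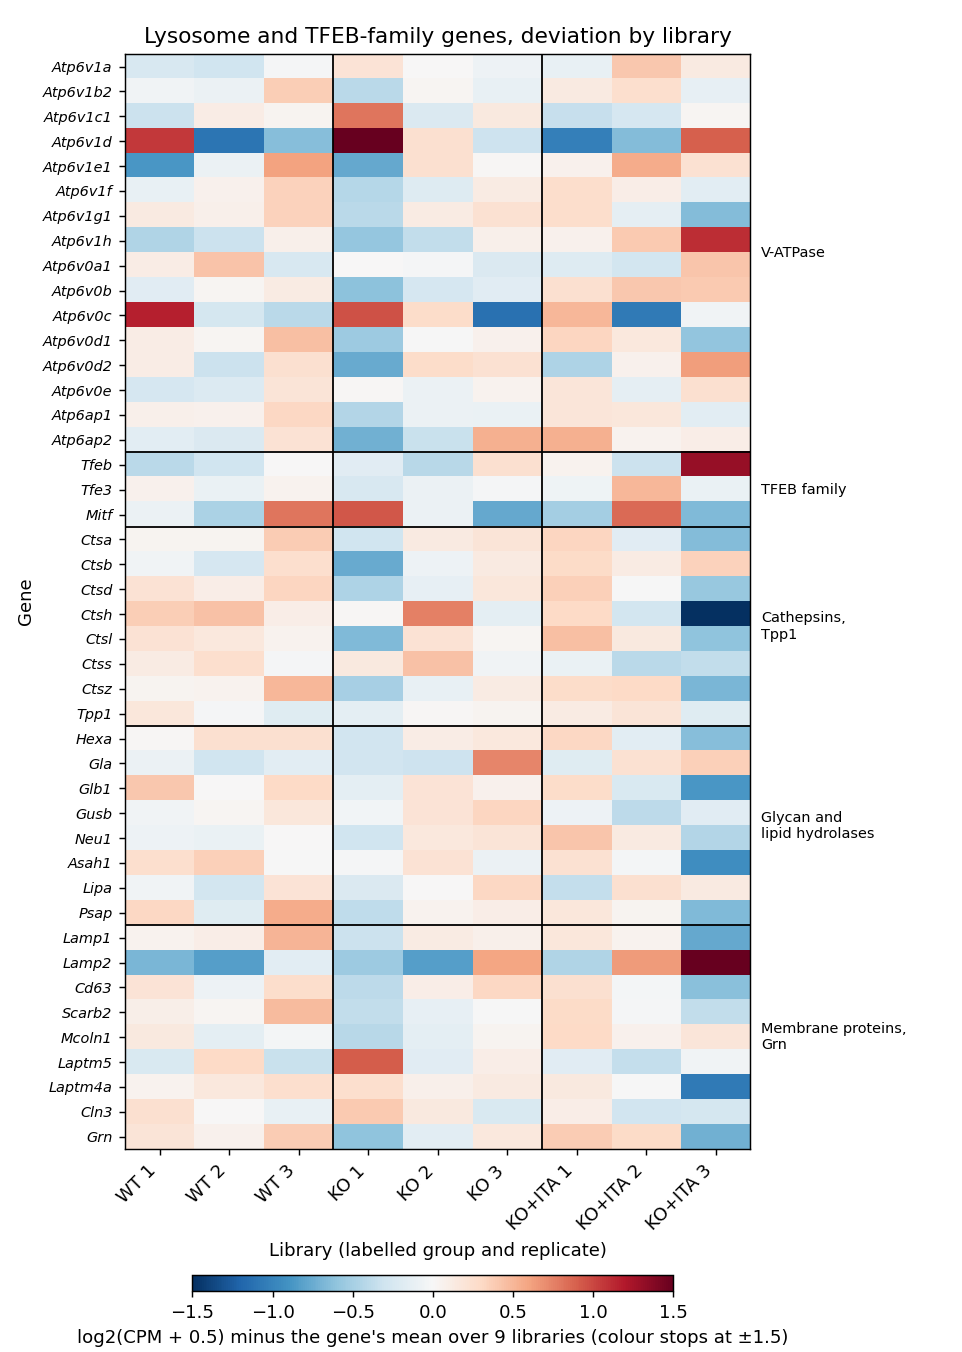
Deviation of each of the 44 genes (rows, grouped by role) in each of the 9 libraries (columns, labelled group and replicate), as log2(CPM + 0.5) minus the gene's mean over the 9 libraries; red is above and blue below that mean, and the colour stops at ±1.5. KO+ITA replicate 3 is blue for most proteases and hydrolases but dark red for Lamp2 and Tfeb, and KO replicate 1 is blue for most pump genes.

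**Figure D2:**
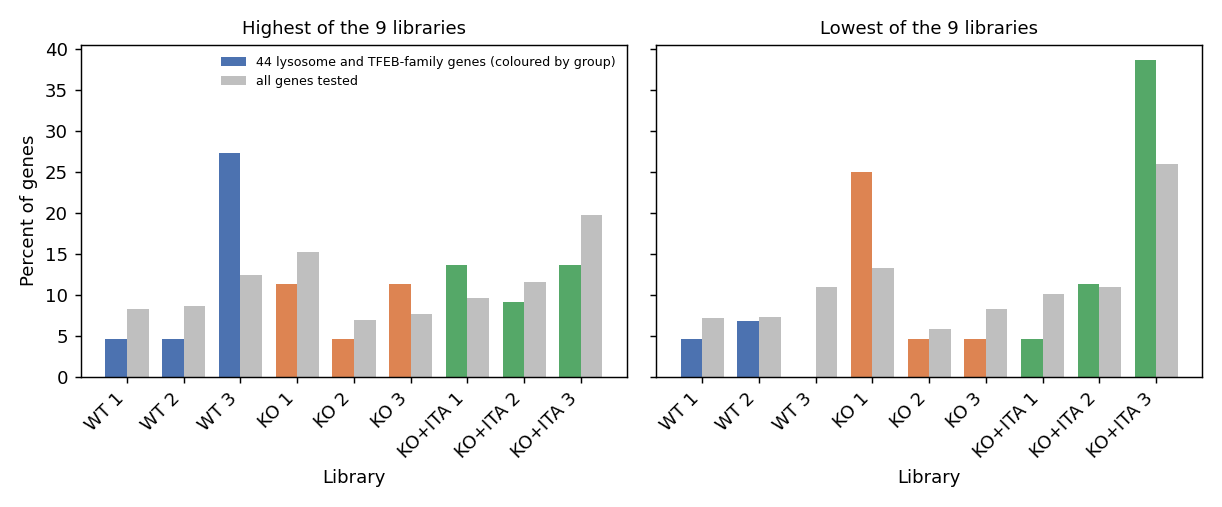
Percent of genes for which each library was the highest (left) or the lowest (right) of the 9, for the 44 lysosome and TFEB-family genes (bars coloured by labelled group) and for all 10781 tested genes (grey). WT replicate 3 holds 27.3% of the highest values, and KO+ITA replicate 3 and KO replicate 1 hold 38.6% and 25% of the lowest.

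The comparison of KO with WT addressed, by the labels, what loss of Irg1 does to the lysosomal programme after LPS. No gene of the set passed (adjusted p under 0.05 over all tested genes, edgeR quasi-likelihood test), where 0% of all 10781 genes did, and none was below an unadjusted p of 0.05, where 3.13% of all genes were. DESeq2, which called 1 gene of all, and limma-voom, which called 0, also called none of the 44. In KO, 14 of the 44 values were above and 30 below WT, with a median log2 fold change of -0.11, beside -0.01 over all tested genes, of which 48.9% were above. Single differences ran from -0.39 ± 0.32 (SE) for Grn, the secreted and lysosomal growth factor progranulin, to 0.61 ± 0.60 for Atp6v1d, a stalk subunit of the pump. By role the medians were -0.09 for the pump (4 of 16 above), -0.16 for the proteases (1 of 8), -0.04 for the glycan and lipid hydrolases (4 of 8), -0.1 for the membrane group (3 of 9) and 0.02 for the TFEB family (2 of 3). The libraries of the 2 groups did not overlap for 2 of the 44 genes (4.55%), both lower in KO, where 10.6% of all tested genes did not overlap (4.85% higher and 5.76% lower). These were Atp6ap1, an accessory protein of the pump, and Scarb2, the receptor that carries glucocerebrosidase to lysosomes.
The median leaned on KO replicate 1, without which it was -0.02 with 20 of 44 above. Without the 4 libraries with conflicting Acod1 it was -0.28 with 11 of 44 above, beside 0.04 over all genes tested, and WT replicate 3 is then the only WT library. Among the libraries numbered 1 in the description label, which holds 3 WT and 2 KO libraries, the median was -0.16 and 0 genes of the set were called.

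The comparison of KO+ITA with KO asked, by the labels, how itaconate supplied from outside acts on knockout cells, although KO replicate 3 and KO+ITA replicate 3 had high Acod1. Again 0 of the 44 genes passed (background 0%, edgeR), and 3 were below an unadjusted p of 0.05 (6.82%, against 8.3% of all tested genes): Atp6v0b, Atp6v1h and Lamp2, all higher in KO+ITA. DESeq2, with 12 calls among all genes, and limma-voom, with 0, called none of the 44. Values were above KO for 25 of the 44, with a median of 0.08, beside -0.02 over all tested genes, of which 48.4% were above. The pump had 12 of 16 values above (median 0.16), the proteases 5 of 8 (0.09), the hydrolases 2 of 8 (-0.08), the membrane group 4 of 9 (-0.1) and the TFEB family 2 of 3 (0.24). In 4 of the 44 genes (9.09%, against 10.9% of all tested genes, 5.61% higher and 5.29% lower) the libraries did not overlap. Atp6v0b and Mcoln1 were higher in KO+ITA, and Ctss and Gusb lower.
Without KO replicate 1 the median was -0.01 with 21 of 44 above, and no gene of the set was below an unadjusted p of 0.05. Without the 4 libraries, which leaves replicates 1 and 2 of both groups, it was 0.18 with 30 of 44 above, beside -0.03 over all genes tested. The numbers of the description label split these groups except for number 2, which holds KO replicate 3 and KO+ITA replicate 1. With that number as a term the median was 0.11, which rests on this pair. In that fit KO+ITA replicates 2 and 3 have numbers of their own and carry no weight, for single genes too. KO+ITA against WT rests there on the same pair and on KO against WT among number 1.

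The comparison of KO+ITA with WT asked whether knockout cells given itaconate come close to wild-type cells, again by the labels. None of the 44 genes passed (background 0%, edgeR), and neither DESeq2, with 17 calls among all genes, nor limma-voom, with 0, called any of them. Only Lamp2 and Atp6v1h were below an unadjusted p of 0.05 (4.55%, against 8.89% of all tested genes), both higher in KO+ITA. Values were above WT for 17 of the 44, with a median of -0.11, beside -0.01 over all tested genes, of which 49.1% were above. The pump had 8 of 16 above (median -0.01), the proteases 2 of 8 (-0.21), the hydrolases 3 of 8 (-0.27), the membrane group 2 of 9 (-0.19) and the TFEB family 2 of 3 (0.13). The libraries did not overlap for 3 of the 44 (6.82%, against 14.6% of all tested genes, 7.3% higher and 7.25% lower): Atp6v0b was higher and Ctss and Gusb were lower in KO+ITA. The median was 0.02, with 23 of 44 above, without KO+ITA replicate 3. The KO+ITA libraries serve in both comparisons with itaconate, so the 2 sets of values are not independent.

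**Figure D3:**
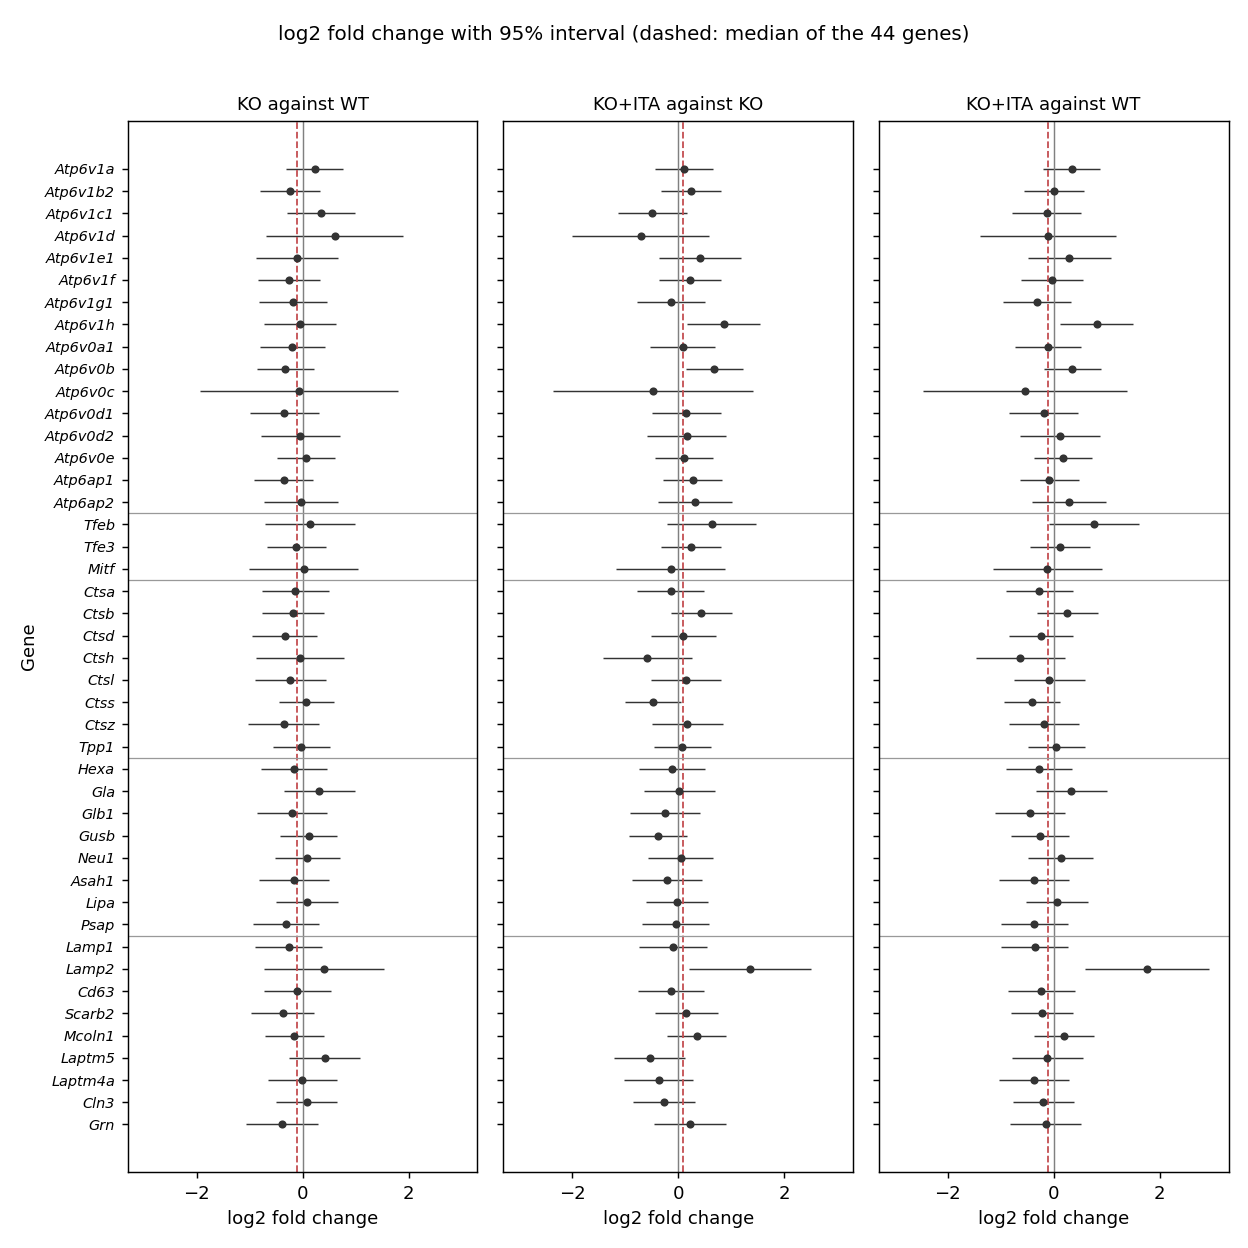
log2 fold change (points) with 95% intervals (lines) of the 44 genes in the 3 comparisons, from the edgeR fit of all 9 libraries; genes are grouped by role, and the dashed line marks the median of the 44, at -0.11, 0.08 and -0.11. Most intervals span 0, and Lamp2 has the largest positive values in both comparisons with KO+ITA.

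Of the TFEB family, Tfeb itself was at 10.1, 10.9 and 13.7 CPM in WT replicates 1 to 3, 12, 10.1 and 16 in KO and 14, 10.8 and 34.2 in KO+ITA. KO+ITA replicate 3 was far above the others, and the groups overlapped. The means were 11.6 ± 1.86 CPM in WT, 12.7 ± 3.06 in KO and 19.6 ± 12.7 in KO+ITA (SD, n = 3). Tfeb differed by 0.63 ± 0.40 between KO+ITA and KO (95% interval -0.21 to 1.48) and by 0.77 ± 0.40 between KO+ITA and WT (edgeR adjusted p = 0.692 and 0.584). Without KO+ITA replicate 3 these were -0.04 and 0.11, and without the 4 libraries 0.15 and -0.14. Between KO and WT it differed by 0.13 ± 0.40, and by -0.04 without KO replicate 3.
Tfe3, the relative of Tfeb with overlapping targets, was at 151, 134 and 149 CPM in WT replicates 1 to 3, 122, 136 and 143 in KO and 138, 203 and 134 in KO+ITA. Its levels overlapped between all groups, with KO+ITA replicate 2 the highest. The differences were -0.12 ± 0.27, 0.24 ± 0.27 and 0.13 ± 0.27 for KO against WT, KO+ITA against KO and KO+ITA against WT. The last was -0.09 without KO+ITA replicate 2.
Mitf, the member best known from pigment cells and osteoclasts, was at 118, 90.3 and 219 CPM in WT replicates 1 to 3, 241, 118 and 73.6 in KO and 88, 226 and 79.4 in KO+ITA. Each group thus held 1 library above 200 CPM, of a different replicate number, and lower ones. Mitf differed by 0.02 ± 0.48 between KO and WT, with an interval of -1.01 to 1.04, which turned to -0.57 without KO replicate 1 and 0.47 without WT replicate 3. Between KO+ITA and KO it was -0.14 ± 0.48, or 0.45 without KO replicate 1, and between KO+ITA and WT -0.12 ± 0.48, or 0.33 without WT replicate 3. The intervals of the latter 2, -1.16 to 0.89 and -1.15 to 0.91, are as wide. Changes of either sign within them remain compatible with these libraries.

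**Figure D4:**
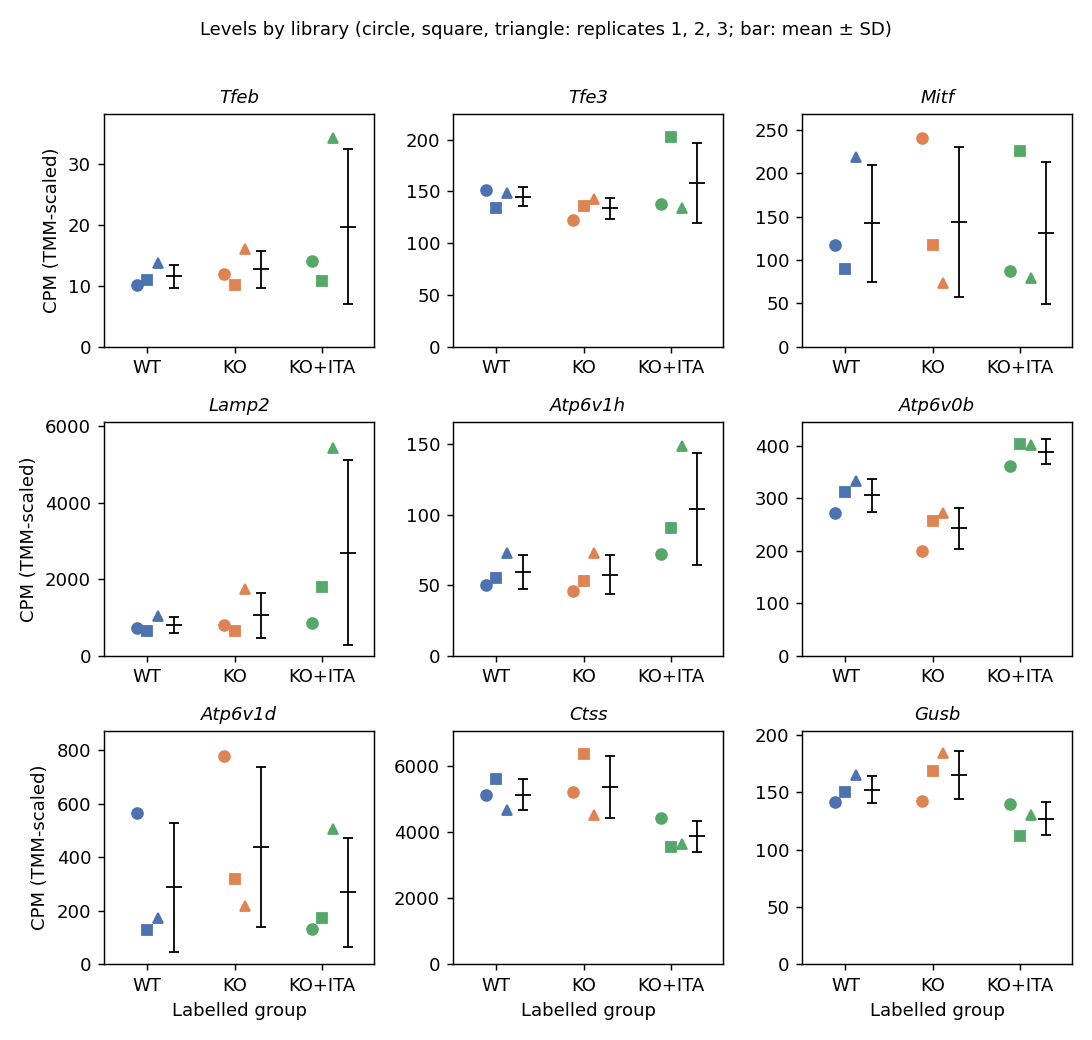
CPM (TMM-scaled, axes from 0) of 9 genes in each library, by labelled group; circles, squares and triangles are replicates 1, 2 and 3, and black bars give the mean ± SD of 3 libraries. The groups KO+ITA and KO do not overlap for Atp6v0b, Ctss and Gusb, whereas for Tfeb and Lamp2 one library, KO+ITA replicate 3, lies far above the rest.

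The vacuolar ATPase has a cytosolic V1 sector, which splits ATP, and a membrane V0 sector, which carries protons. In V1, the catalytic subunit Atp6v1a was at 1351, 1301 and 1585 CPM in WT replicates 1 to 3, 1840, 1603 and 1522 in KO and 1481, 2118 and 1764 in KO+ITA. The highest library was KO+ITA replicate 2 and all groups overlapped, with differences of 0.23 ± 0.25, 0.11 ± 0.25 and 0.34 ± 0.25 for KO against WT, KO+ITA against KO and KO+ITA against WT. It is 1 of the genes whose promoter window is printed above.
Atp6v1h, the regulatory subunit that couples V1 to V0, was at 50.3, 54.9 and 72.7 CPM in WT replicates 1 to 3, 45.8, 53.2 and 72.7 in KO and 72.3, 90.9 and 149 in KO+ITA. KO+ITA replicate 3 was the highest, and replicate 1 lay within the range of WT and KO. It differed by 0.86 ± 0.32 from KO (95% interval 0.17 to 1.55) and by 0.81 ± 0.32 from WT (0.12 to 1.5), with edgeR adjusted p = 0.523 and 0.542. Without KO+ITA replicate 3 these were 0.50 and 0.47, and without the 4 libraries 0.69 and 0.16. With the number of the description label as a term they were -0.01 and -0.27, of KO+ITA libraries resting on replicate 1 alone. The gene overlaps Rgs20 on the other strand.
Atp6v1d, a subunit of the central stalk, was the most uneven well-counted pump gene, at 566, 126 and 173 CPM in WT replicates 1 to 3, 779, 319.7 and 217 in KO and 132, 171 and 504 in KO+ITA. In each group 1 library stood far above the lowest, and the groups overlapped. KO differed from WT by 0.61 ± 0.60, a value that was -0.10 without KO replicate 1 and 1.55 without WT replicate 1. KO+ITA differed from KO by -0.71 ± 0.60 and from WT by -0.10 ± 0.60, which was 0.84 without WT replicate 1. Without the 4 libraries, an alternative added once the data had been seen, the difference of KO+ITA from KO was -1.88. Only 1 WT library is left in that fit, so no test from it is given. The leave-one-out values of the same difference ran from -1.55 without KO+ITA replicate 3 to -0.0013 without KO replicate 1.
The other V1 members, Atp6v1b2 of the catalytic ring, Atp6v1c1, which regulates assembly of the sectors, the peripheral stalk subunits Atp6v1e1 and Atp6v1g1, and Atp6v1f of the central stalk, had differences of -0.26 to 0.35 for KO against WT, with the highest for Atp6v1c1. For KO+ITA against KO they lay between -0.49 ± 0.30 for Atp6v1c1 and 0.41 ± 0.36 for Atp6v1e1, of which the first was -0.16 and the second 0.16 without KO replicate 1.

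In the membrane sector, Atp6v0b, a proteolipid of the rotating ring, was the only gene of the 44 for which KO+ITA was higher without overlap in both comparisons. It was at 272, 312 and 333 CPM in WT replicates 1 to 3, 199, 257 and 273 in KO and 362, 403 and 403 in KO+ITA. All 3 KO+ITA libraries lay above all WT and all KO libraries, including the KO+ITA library in which Acod1 was high. The means were 306 ± 30.9 CPM in WT, 243 ± 38.9 in KO and 389.5 ± 23.6 in KO+ITA (SD, n = 3). The difference of KO+ITA from KO was 0.68 ± 0.25 (95% interval 0.14 to 1.22, edgeR adjusted p = 0.523). It ran from 0.55 to 0.76 when any 1 library was left out, and was 0.72 without the 4 libraries. With the number of the description label as a term it was 0.41, resting on KO replicate 3 and KO+ITA replicate 1. From WT, KO+ITA differed by 0.35 ± 0.25 (edgeR adjusted p = 0.685), or -0.01 with that term, and KO differed from WT by -0.33 ± 0.25. The gene (chromosome 4, 117884326 to 117887333, minus strand, GRCm38) overlaps Gm12841 on the other strand, and whether the counting used strand is not given in the sources used here.
Atp6v0d2, the form of the d subunit known from osteoclasts and macrophages, was at 26.8, 19.7 and 29.4 CPM in WT replicates 1 to 3, 14.4, 30.1 and 29.2 in KO and 17.8, 25.9 and 38.5 in KO+ITA, with overlapping groups and differences of -0.04 ± 0.35, 0.16 ± 0.35 and 0.12 ± 0.35 in the same 3 comparisons. The 2 comparisons with itaconate were -0.18 and -0.20 without KO+ITA replicate 3. Its widespread counterpart Atp6v0d1 differed by -0.34 ± 0.30, 0.16 ± 0.30 and -0.19 ± 0.30.
Atp6v0c, which encodes the main proteolipid of the ring, had only 28, 12 and 6 reads in WT, 58, 21 and 3 in KO and 21, 3 and 11 in KO+ITA. The annotation lists 2 pseudogenes by its name, and reads with several alignments (17.1% to 20% of a library's reads) were set apart by the counter, so its level is uncertain. Its differences of -0.07 ± 0.88, -0.48 ± 0.88 and -0.54 ± 0.90 had wide errors, and those of KO and of KO+ITA from WT were 0.87 and 0.39 without WT replicate 1, that of KO+ITA from KO 0.26 without KO replicate 1.
The accessory protein Atp6ap1 was at 96.7, 95.9 and 115 CPM in WT replicates 1 to 3, 68, 86.3 and 85.6 in KO and 105, 103 and 82.2 in KO+ITA. Every KO library lay below every WT library, by a narrow margin, and the difference was -0.36 ± 0.26 (95% interval -0.91 to 0.2, edgeR adjusted p = 0.995). It was 0.27 ± 0.26 for KO+ITA against KO and -0.08 ± 0.26 for KO+ITA against WT, the latter 0.03 without KO+ITA replicate 3. Atp6ap2, the prorenin receptor, and the V0 subunits Atp6v0a1 and Atp6v0e had differences between -0.20 ± 0.29 (Atp6v0a1, KO against WT) and 0.32 ± 0.33 (Atp6ap2, KO+ITA against KO).

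Among the proteases, cathepsin S (Ctss), which trims the invariant chain of MHC class II, was at 5123, 5596 and 4660 CPM in WT replicates 1 to 3, 5215, 6376 and 4527 in KO and 4412, 3552 and 3644 in KO+ITA. All KO+ITA libraries lay below all WT and all KO libraries. The means were 5126 ± 468 CPM in WT, 5373 ± 935 in KO and 3869 ± 472 in KO+ITA (SD, n = 3). Ctss differed by -0.47 ± 0.25 between KO+ITA and KO (95% interval -1.0 to 0.05) and by -0.41 ± 0.25 between KO+ITA and WT (edgeR adjusted p = 0.626 and 0.636). Leaving out any 1 library kept the first between -0.59 and -0.33. With the number of the description label as a term it was -0.04, resting on KO replicate 3 and KO+ITA replicate 1. Macrophage markers summed to 3510 to 7680 CPM in KO+ITA against 7020 to 10700 in the other groups, and their part in this was not tested. Between KO and WT Ctss differed by 0.07 ± 0.25, or -0.08 without KO replicate 2.
Cathepsin B (Ctsb), a cysteine protease, was at 6652, 5808 and 8236 CPM in WT replicates 1 to 3, 4097, 6572 and 7606 in KO and 8410, 7562 and 8780 in KO+ITA. KO replicate 1 was the lowest library, and KO+ITA replicate 3 the highest although most proteases were lowest there. Its differences were -0.18 ± 0.27 for KO against WT, 0.44 ± 0.27 for KO+ITA against KO and 0.26 ± 0.27 for KO+ITA against WT. The first was 0.04 without KO replicate 1, and the third -0.05 without the 4 libraries.
Cathepsin D (Ctsd), the main aspartic protease, was at 2569, 2360 and 2752 CPM in WT replicates 1 to 3, 1595, 2023 and 2472 in KO and 2830, 2195 and 1483 in KO+ITA. The lowest values were those of KO+ITA replicate 3 and KO replicate 1, and the groups overlapped. It differed by -0.33 ± 0.29, 0.10 ± 0.29 and -0.24 ± 0.29 in the 3 comparisons, the second being -0.15 without KO+ITA replicate 1.
Cathepsin L (Ctsl), a broad cysteine protease, was at 2037, 1958 and 1818 CPM in WT replicates 1 to 3, 1110, 2048 and 1798 in KO and 2397, 1936 and 1156 in KO+ITA. The same 2 libraries were lowest, and the differences were -0.23 ± 0.31, 0.15 ± 0.31 and -0.08 ± 0.31, the second being -0.10 without KO+ITA replicate 1 and the third 0.17 without KO+ITA replicate 3.
The aminopeptidase cathepsin H (Ctsh) was at 444, 468 and 368 CPM in WT replicates 1 to 3, 349, 579 and 310.3 in KO and 424, 285 and 116 in KO+ITA. KO+ITA replicate 3 was far below the others, and the groups overlapped. It differed by -0.59 ± 0.39 between KO+ITA and KO and by -0.63 ± 0.39 between KO+ITA and WT, or -0.23 and -0.26 without KO+ITA replicate 3. With the number of the description label as a term both turned, to 0.45 and 0.57, of KO+ITA libraries resting on replicate 1 alone. KO differed from WT by -0.05 ± 0.39, or 0.36 without the 4 libraries. The carboxypeptidases Ctsa and Ctsz and the tripeptidyl peptidase Tpp1 lay between -0.36 ± 0.31 (Ctsz, KO against WT) and 0.18 ± 0.31 (Ctsz, KO+ITA against KO) in all 3 comparisons. Tpp1 was the steadiest of the 44 genes, with a ratio of 1.30 between its highest and lowest libraries.

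Of the enzymes that cut glycans, β-glucuronidase (Gusb) was at 141, 150.0 and 165 CPM in WT replicates 1 to 3, 142, 168 and 184 in KO and 139, 112 and 129.8 in KO+ITA. Every KO+ITA library lay below every WT and KO library, though the highest of the former and the lowest of the latter were close. The means were 152 ± 11.9 CPM in WT, 165 ± 21.1 in KO and 127 ± 14.1 in KO+ITA (SD, n = 3). The differences were -0.38 ± 0.25 for KO+ITA against KO (95% interval -0.92 to 0.16, edgeR adjusted p = 0.715), -0.26 ± 0.25 for KO+ITA against WT and 0.12 ± 0.25 for KO against WT.
The sialidase gene Neu1 was at 105, 104 and 111 CPM in WT replicates 1 to 3, 89.9, 123 and 126 in KO and 148, 122 and 81.4 in KO+ITA, with the KO+ITA libraries holding both its highest and its lowest value. It differed by 0.09 ± 0.29, 0.05 ± 0.29 and 0.13 ± 0.29, and the latter 2 were -0.16 and -0.07 without KO+ITA replicate 1. Hexa, the α subunit of β-hexosaminidase, was at 230.0, 270.1 and 269 CPM in WT replicates 1 to 3, 187, 247 and 254 in KO and 283, 204 and 146 in KO+ITA. Its lowest library was KO+ITA replicate 3 and its groups overlapped, with differences of -0.16 ± 0.29, -0.12 ± 0.29 and -0.28 ± 0.29, the second turning to 0.08 without KO+ITA replicate 3.
Gla, the α-galactosidase, was at 200.2, 174 and 192 CPM in WT replicates 1 to 3, 175, 172 and 356 in KO and 188, 249 and 275 in KO+ITA. KO replicate 3 was the highest, and its difference of KO from WT, 0.31 ± 0.31, was -0.10 without that library. KO+ITA differed by 0.02 ± 0.31 from KO and 0.33 ± 0.31 from WT. With the number of the description label as a term these were -0.92 and -1.04, both resting on KO replicate 3 and KO+ITA replicate 1. Glb1, the β-galactosidase, and Asah1, the acid ceramidase, were lowest in KO+ITA replicate 3. They differed from WT by -0.45 ± 0.31 and -0.38 ± 0.31 in KO+ITA, or -0.20 and -0.10 without that library. Without the 4 libraries these were -0.26 and 0.11. Psap, the precursor of the saposins that present lipids to hydrolases, differed by -0.32 ± 0.29, -0.05 ± 0.29 and -0.36 ± 0.29. The second turned to 0.16 without KO+ITA replicate 3 and to 0.23 without the 4 libraries. Lipa, the acid lipase that frees cholesterol from its esters, had differences of 0.08 ± 0.27, -0.02 ± 0.27 and 0.06 ± 0.27, with intervals of -0.51 to 0.67, -0.6 to 0.57 and -0.52 to 0.65. Without the 4 libraries they were -0.28, 0.04 and -0.24.

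Lamp1 and Lamp2 are the main glycoproteins of the lysosomal wall. Lamp2, which also serves in chaperone-mediated autophagy and is made in forms that differ at their C-terminal end, was at 712, 645 and 1023 CPM in WT replicates 1 to 3, 788, 647 and 1732 in KO and 840.2, 1787 and 5435 in KO+ITA. The KO+ITA library with high Acod1 was far above all others, followed by KO+ITA replicate 2 and KO replicate 3, whereas KO+ITA replicate 1 lay within the WT range. The means were 793 ± 201 CPM in WT, 1056 ± 589.7 in KO and 2688 ± 2426 in KO+ITA (SD, n = 3). Lamp2 had the largest difference of the set in both comparisons with itaconate, 1.35 ± 0.54 from KO (95% interval 0.2 to 2.5) and 1.76 ± 0.55 from WT (0.6 to 2.92), with edgeR adjusted p = 0.545 and 0.515. Without KO+ITA replicate 3 these were 0.31 and 0.73, and without the 4 libraries 0.84 and 0.35. With the number of the description label as a term they were -1.04 and -1.19, both resting on KO replicate 3 and KO+ITA replicate 1. The far higher KO+ITA replicate 3 carries no weight in that fit. Without a filter on low counts the comparison with WT passed (edgeR adjusted p = 0.0134), 1 of 92 genes called among 14936 tested. The edgeR adjusted p of that comparison otherwise ranged from 0.104 without KO+ITA replicate 1 upward. Between KO and WT Lamp2 differed by 0.41 ± 0.53, or -0.12 without KO replicate 3. The gene (chromosome X, 38401357 to 38456454, minus strand, GRCm38) overlaps no other annotated gene.
Lamp1 was at 591, 614 and 811 CPM in WT replicates 1 to 3, 458, 622 and 602 in KO and 645, 593 and 336 in KO+ITA. In KO+ITA replicate 3, where Lamp2 was highest, Lamp1 was lowest. It differed by -0.26 ± 0.30, -0.10 ± 0.30 and -0.36 ± 0.30, and the second was 0.13 without that library.
Mcoln1, the lysosomal channel whose calcium release lets calcineurin free TFEB, was at 23, 18.7 and 20.3 CPM in WT replicates 1 to 3, 15.5, 18.8 and 21.4 in KO and 25.7, 21.7 and 23.6 in KO+ITA. The KO+ITA libraries lay above those of KO by a narrow margin, and overlapped with WT. The difference from KO was 0.35 ± 0.26 (95% interval -0.21 to 0.91, edgeR adjusted p = 0.736), and it was 0.19 ± 0.26 from WT and -0.16 ± 0.26 for KO against WT.
Cd63, a tetraspanin of lysosomes and exosomes, was at 442, 362 and 458 CPM in WT replicates 1 to 3, 291, 411 and 476 in KO and 451, 375 and 246 in KO+ITA. Groups overlapped, the lowest value again being that of KO+ITA replicate 3, and the differences were -0.10 ± 0.29, -0.14 ± 0.29 and -0.24 ± 0.29, the first 0.08 without KO replicate 1 and the second 0.07 without KO+ITA replicate 3. A pseudogene bears the name of Cd63, so its counts share the doubt given for Atp6v0c.

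Scarb2 was at 84.1, 80.7 and 110.2 CPM in WT replicates 1 to 3, 61.2, 72.5 and 78.4 in KO and 96.9, 77.8 and 61.1 in KO+ITA. Every KO library lay below every WT library, by a narrow margin, and the difference was -0.37 ± 0.28 (95% interval -0.97 to 0.22, edgeR adjusted p = 0.995). KO+ITA differed from KO by 0.15 ± 0.28, or -0.03 without KO+ITA replicate 1.
Progranulin (Grn) was at 1197, 1099 and 1371 CPM in WT replicates 1 to 3, 689.5, 939.9 and 1176 in KO and 1373, 1286 and 638 in KO+ITA. Its lowest libraries were KO+ITA replicate 3 and KO replicate 1, and all groups overlapped. It differed by -0.39 ± 0.32, 0.23 ± 0.32 and -0.15 ± 0.32, the last being 0.13 without KO+ITA replicate 3.
Laptm5, a lysosomal membrane protein of blood cells, was at 471, 679.6 and 438 CPM in WT replicates 1 to 3, 1037, 491 and 590.5 in KO and 493, 432 and 533 in KO+ITA. KO replicate 1 was far above the others, and without it the difference of KO from WT, 0.42 ± 0.31, was 0.03 and that of KO+ITA from KO, -0.54 ± 0.31, was -0.16. KO+ITA differed from WT by -0.12 ± 0.31, or 0.09 without WT replicate 2. Laptm4a, its relative, had -0.37 ± 0.31 for KO+ITA against KO, and -0.09 without KO+ITA replicate 3. Cln3, the membrane protein lost in juvenile neuronal ceroid lipofuscinosis, had 0.08 ± 0.27, -0.27 ± 0.27 and -0.19 ± 0.27. The first was -0.08 without KO replicate 1, and the third 0.02 without the 4 libraries.

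The 8 genes with TCACGTGA in the promoters printed above had medians of -0.04 for KO against WT (4 of 8 above), 0.1 for KO+ITA against KO (6 of 8) and -0.01 for KO+ITA against WT (4 of 8). Their single differences lay between -0.34 and 0.35 in all 3 comparisons. Among all 200 tested genes with the motif the medians were 0.07 (57.5% above), 0.01 (51.5%) and 0.01 (51%), beside -0.01, -0.02 and -0.02 for the 8591 tested genes with a promoter. The 24 genes of the set whose promoters lack CACGTG had medians of -0.05, 0.06 and -0.11. Lamp2 and Atp6v1d, which varied most among the genes with 100 or more reads in every library and a promoter at hand, and Tfeb have no CACGTG in the 300 bases examined. They share this with most of the set, and only 12% of tested genes with a promoter hold CACGTG.

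A further list of 116 genes of lysosome, nutrient sensing and autophagy, of which 108 were tested, gave the surroundings of the set. None passed in any comparison (edgeR, background 0%). For KO against WT 51 of 108 were above and the median was -0.08, for KO+ITA against KO 45 of 108 and -0.1, and for KO+ITA against WT 43 of 108 and -0.11. Of all tested genes, 48.9%, 48.4% and 49.1% were above in these 3 comparisons. Unadjusted p-values under 0.05 numbered 5, 7 and 19 of the 108 (4.63%, 6.48% and 17.6%, against 3.13%, 8.3% and 8.89% of all tested genes). The named genes are the 2 with the smallest p in a list.
Of the other pump subunits, 3 of 9 were tested, and Atp6v0a4, Atp6v0e2, Atp6v1b1, Atp6v1c2, Atp6v1e2 and Atp6v1g3, mostly known from other tissues, had 0 reads in all 9 libraries. Tcirg1, the a subunit of osteoclasts and macrophages, differed by -0.17 ± 0.27 between KO and WT and by -0.08 ± 0.27 between KO+ITA and WT. Atp6v1g2, at low levels, differed by -1.17 ± 0.52 from KO and from WT in KO+ITA (edgeR adjusted p = 0.59 and 0.549). Its KO+ITA libraries, at 3.97, 3.84 and 0.846 CPM, lay below all others, of which WT replicate 3 was lowest at 4.95. Of the 3 subunits, 2 were above KO in KO+ITA and 0 above WT.
Among 33 tested hydrolases outside the set, Dnase2a, the lysosomal DNase that degrades engulfed DNA, was at 79.3, 76.1 and 71.2 CPM in WT replicates 1 to 3, 93.8, 101 and 128 in KO and 138, 104 and 265 in KO+ITA. The WT libraries lay below all the others. It differed by 1.16 ± 0.33 between KO+ITA and WT (edgeR adjusted p = 0.515). Lgmn, which encodes the asparaginyl protease that matures cathepsins, was at 1040, 776 and 881 CPM in WT replicates 1 to 3, 608, 1065 and 1572 in KO and 2107, 1378 and 1885 in KO+ITA. All KO+ITA libraries exceeded all WT libraries, with a difference of 0.99 ± 0.33 (edgeR adjusted p = 0.518), and they overlapped with KO. Idua, which cleaves heparan and dermatan sulphate, was at 27.8, 25.5 and 25.9 CPM in WT replicates 1 to 3, 42.7, 35.5 and 24.6 in KO and 20.3, 17.7 and 7.83 in KO+ITA, with all KO+ITA libraries below all WT and KO libraries, and differed by -1.17 ± 0.35 between KO+ITA and KO (edgeR adjusted p = 0.507). The list as a whole had 15, 17 and 14 of 33 values above in the 3 comparisons.
Of 22 other membrane and sorting genes, 17 were below KO in KO+ITA and 5 above (median -0.16), where 48.4% of all tested genes were above. Cd68, the macrophage lysosomal glycoprotein, was at 369, 328 and 410.2 CPM in WT replicates 1 to 3, 231, 325 and 253 in KO and 229.8, 225 and 74 in KO+ITA. All KO+ITA libraries lay below all WT and, narrowly, all KO libraries, with a difference from WT of -1.06 ± 0.37 (edgeR adjusted p = 0.518). Cd68 is also one of the macrophage markers, whose sum was lowest in KO+ITA replicate 3.
Of 25 tested genes upstream of TFEB, Ywhab, a 14-3-3 protein of the kind that holds phosphorylated TFEB in the cytosol, was at 509, 488 and 996 CPM in WT replicates 1 to 3, 730.4, 479.7 and 907 in KO and 584, 1684 and 2340 in KO+ITA. Its highest libraries, KO+ITA replicates 3 and 2, are also those with the most Lamp2. Replicate 3 was, however, the highest of the 9 libraries for 19.8% of all tested genes, and replicate 2 for 11.6%. Ywhab differed by 1.12 ± 0.44 from KO and 1.21 ± 0.44 from WT in KO+ITA (edgeR adjusted p = 0.538 and 0.524). Lamtor4, of the complex that tethers mTORC1 to lysosomes, was at 48.2, 65.3 and 56.9 CPM in WT replicates 1 to 3, 32.1, 41.3 and 29.7 in KO and 60.0, 62.3 and 45.7 in KO+ITA. All KO libraries lay below all WT and KO+ITA libraries, with -0.73 ± 0.27 for KO against WT and 0.70 ± 0.27 for KO+ITA against KO (edgeR adjusted p = 0.995 and 0.529). Gsk3b, a kinase that phosphorylates TFEB, differed by 0.72 ± 0.27 between KO+ITA and WT.
Of the 25 autophagy genes, 10, 7 and 9 were above in the 3 comparisons, with medians of -0.1, -0.12 and -0.13. The shares above over all tested genes were 48.9%, 48.4% and 49.1%. Sqstm1, the autophagy receptor p62, was at 547, 321 and 1542 CPM in WT replicates 1 to 3, 439, 442 and 609.9 in KO and 436, 1132 and 1081 in KO+ITA. Groups overlapped, and KO+ITA differed from KO by 0.83 ± 0.48 (edgeR adjusted p = 0.672). Ulk1, the kinase that starts autophagy, differed by -1.04 ± 0.47 between KO+ITA and WT (edgeR adjusted p = 0.549).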

How the data were processed

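Messenger RNA of 9 libraries was captured on oligo-dT beads, copied with barcoded oligo-dT primers, pooled and sequenced with strand kept, per the labels' protocols. Such reads lie mostly near 3′ ends, so CPM was not divided by length, and levels were not compared between genes. The authors deposited raw counts of reads per gene. Per the submitters' processing notes, STAR, HTSeq and the build mm10 were used. Tool versions, with the annotation and filters, are not given in the sources used here. Of the table, the 5 summary lines of the counter were left out of library sizes. Reads outside genes made up 23.1% to 33.7% of a library.

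Symbols were matched for 21745 of 22165 rows, and positions are from GENCODE on GRCm38. All 9 libraries entered 1 edgeR 4.0.16 quasi-likelihood fit (R 4.3.3, two-sided) with group as the only term, TMM scaling and a minimum count of 10. P-values were adjusted by Benjamini-Hochberg over 10781 genes, with a threshold of 0.05. The SE is the log2 fold change divided by the square root of F. CPM is TMM-scaled, except for marker sums. Alternatives were DESeq2 1.42.0, limma-voom (limma 3.58.1), other scaling, filters, terms and samples.

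Per-library values are given for Tfeb, Tfe3 and Mitf, a panel of 17 others, the 4 genes with the smallest p in each comparison, and any gene called. Atp6v1d, Ctsh and Gla were added after their values were seen. The set, the lists and the rule for named genes were chosen with earlier results of these data known. The labels do not say that replicate numbers pair samples.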

Additional observations from a re-analysis of the deposited data

How the results depend on the processing

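No gene of the 44 passed in any comparison as designed, with DESeq2, limma-voom, other scaling, a minimum count of 50, only the groups compared, or any 1 library left out. Without a filter, 80 of 14936 genes passed for KO+ITA against KO and 92 for KO+ITA against WT, of which Lamp2 was 1. DESeq2 called 1, 12 and 17 genes in the 3 comparisons. Without KO+ITA replicate 1, 6 and 4 genes passed in the comparisons with itaconate, so leaving out 1 library gave 0 to 6 and 0 to 4. Without the 4 libraries with conflicting Acod1, chosen after seeing the data, 2, 217 and 1 genes passed, Atp6v1d the only 1 of the 44, and the median for KO against WT was -0.28. The cause was not tested. The medians kept within -0.18 to -0.02, -0.01 to 0.12 and -0.14 to 0.02 when 1 library was left out. With the replicate block, 0 genes were called and the medians were -0.1, 0.08 and -0.12. Same-numbered libraries had correlations of deviations of -0.183 to 0.281. WT replicates 1 and 3, KO replicate 3 and KO+ITA replicate 2 correlated best with a library of their own number, the highest being 0.281 between WT and KO replicates 3. The other libraries correlated best with a different number. These values do not settle whether the numbers are pairs, so the block served only as an alternative. Signs of single genes were unstable, and differences over 1 SE numbered 11, 15 and 15 of the 44 (25%, 34.1% and 34.1%, against 31%, 40.7% and 43% of all tested genes). Leaving out 1 library turned the sign in 20, 20 and 18 of the 44. The ranges for KO against WT of the per-library genes so affected were Mitf -0.57 to 0.47, Atp6v0d2 -0.22 to 0.23, Atp6v0c -0.81 to 0.87, Ctsh -0.37 to 0.14, Atp6v1h -0.24 to 0.12, Ctsb -0.35 to 0.0398, Cd63 -0.24 to 0.076, Atp6v1d -0.10 to 1.55, Ctss -0.0753 to 0.20, Tfeb -0.0418 to 0.27, Lamp2 -0.12 to 0.67 and Gla -0.0958 to 0.49. The ranges for KO+ITA against KO of the per-library genes so affected were Mitf -0.79 to 0.45, Atp6v0d2 -0.18 to 0.39, Atp6v0c -1.10 to 0.26, Ctsd -0.15 to 0.30, Ctsl -0.0993 to 0.38, Neu1 -0.16 to 0.24, Gla -0.16 to 0.44, Cd63 -0.34 to 0.066, Scarb2 -0.0295 to 0.30, Atp6v1a -0.0309 to 0.23, Tfeb -0.0374 to 0.92, Lamp1 -0.27 to 0.13 and Hexa -0.39 to 0.083. The ranges for KO+ITA against WT of the per-library genes so affected were Atp6v0c -1.17 to 0.39, Atp6v1d -0.93 to 0.84, Atp6v0d2 -0.20 to 0.35, Laptm5 -0.25 to 0.0941, Mitf -0.77 to 0.33, Atp6ap1 -0.15 to 0.027, Neu1 -0.0731 to 0.34, Tfe3 -0.0946 to 0.24, Ctsl -0.33 to 0.17 and Grn -0.35 to 0.13. With the number of the description label as a term, the sign turned to -0.0643 for Tfeb, 0.41 for Atp6v0c, -0.14 for Lamp2, 0.12 for Ctsh and -0.12 for Gla in KO against WT, and -0.19 for Tfeb, -0.0545 for Tfe3, 0.26 for Mitf, -0.71 for Atp6v0d2, -0.0393 for Atp6v1a, 2.67 for Atp6v0c, 0.0992 for Lamp1, -1.04 for Lamp2, 0.16 for Hexa, -0.0083 for Atp6v1h, 0.45 for Ctsh and -0.92 for Gla in KO+ITA against KO, and -0.26 for Tfeb, -0.22 for Tfe3, 0.59 for Mitf, -0.90 for Atp6v0d2, 3.08 for Atp6v0c, -1.19 for Lamp2, -0.23 for Ctsb, 0.12 for Ctsl, 0.14 for Ctss, -0.0157 for Mcoln1, 0.27 for Laptm5, -0.0117 for Atp6v0b, -0.27 for Atp6v1h, 0.21 for Atp6v1d, 0.57 for Ctsh and -1.04 for Gla in KO+ITA against WT. Without the 4 libraries, the sign turned to -0.29 for Tfeb, -0.27 for Mitf, 1.48 for Atp6v0c, -0.49 for Lamp2, -0.0639 for Gusb, -0.0343 for Neu1, 0.36 for Ctsh and -0.12 for Gla in KO against WT, and -0.057 for Atp6v0d2, 0.17 for Lamp1, 0.15 for Hexa and 0.21 for Cd63 in KO+ITA against KO, and -0.14 for Tfeb, -0.44 for Atp6v0d2, 0.52 for Atp6v0c, -0.0487 for Ctsb, 0.25 for Ctsl and 0.0754 for Laptm5 in KO+ITA against WT. Among number 1 only, the sign turned to -0.0422 for Tfeb, 0.43 for Atp6v0c, -0.12 for Lamp2, 0.14 for Ctsh and -0.0971 for Gla in KO against WT. With limma-voom, the sign turned to -0.0393 for Mitf and 0.0712 for Atp6v0c in KO against WT. With the replicate block, the sign turned to -0.083 for Mitf in KO against WT, and 0.22 for Atp6v1d in KO+ITA against WT. The turns listed for these alternatives are those of the 26 genes of the set with per-library values. Others of the 44 turned too, such as Asah1 in KO+ITA against WT, to 0.11 without the 4 libraries and 0.21 with the description number. The cause of the turns was not tested. With the description number as a term, both comparisons with itaconate rest on KO replicate 3 and KO+ITA replicate 1, as given above. The median SE of the 44 genes was 0.30 with 3 libraries a group, and 42 of them had 100 or more reads in every library. Atp6v0c, with 3 to 58 reads, was not tested at the minimum count of 50.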
